A study of Homo sapiens with 9 samples.

Results

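The genes described here are those whose name on the array is TRIM followed by a number, with 1 gene counted per name. There are 70 of them among 43317 gene names, read by 104 of 58201 probes. A further 3 names with a hyphen, for antisense and readthrough transcripts, were counted apart. The measurements are of RNA on 9 one-color arrays, with 3 arrays a line for 3 stable lines derived from T47D, an established line of human breast cancer cells. T47D-VC1 carries an empty vector, T47D-PA5 the expression vector pTARGET with an incomplete PTH-AS sequence, and T47D-PA6 that vector with PTH-AS at full length, where PTH-AS is a long noncoding RNA encoded beside the parathyroid hormone gene. All 3 lines went through transfection, and the lines that carry PTH-AS were selected with G418 and chosen for high expression. Each group is 1 line, and a feature of that line cannot be told apart from an effect of what its vector carries.

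TRIM proteins carry a RING finger, B-box domains and a coiled coil, and most of them act as E3 ubiquitin ligases. What follows the coiled coil differs between subfamilies and sets much of their function, most often a PRY-SPRY domain that binds other proteins. Type I interferon acts on genes through the interferon-stimulated response element, and a part of the TRIM family is among its targets, with roles in restricting viruses and in tuning the sensing of foreign RNA and DNA.

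The 3 lines had the markers of the cells they are named for. All 9 of the luminal markers examined, among them KRT8, EPCAM, ESR1 and GATA3, gave signal well above background on each of the 9 arrays. PGR, the progesterone receptor, was 1 of these 9 and fell in T47D-PA6, with a log2 fold change over T47D-VC1 of -1.07 (limma adjusted p = 0.00723). Among leukocyte markers CD3E of T cells was not above background on any array. CD14 of monocytes rose in T47D-PA6, with a log2 fold change of 1.80 (limma adjusted p = 0.0082). Among fibroblast markers COL1A2 and DCN were at background, COL1A1 fell by 0.5 (adjusted p = 0.0198), and the sum was 248 to 381. PECAM1 of endothelium was at background, while VWF and CDH5 were dim but well above it on all 9 arrays, and the endothelial sum was 45.3 to 73.6. The part of these markers in the TRIM values was not tested.

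Per the file headers the arrays lay on 3 slides and were scanned in 2 runs. The slide of the earlier run holds replicate 1 of every line, so each comparison can be made within a run. Values within runs are given beside the results as differences between arrays, with 1 array a line in the earlier run and 2 a line in the later. On the arrays, 44% to 48% of all probes were well above background. The labels do not say whether the replicates are separate cultures, so the p-values measure the spread between these arrays and no more. In RNA from whole cultures, fewer cells with a transcript and less transcript per cell cannot be told apart.

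Of the 70 TRIM genes 46 could be tested (65.7%), against 46.4% of all gene names on the array. Those 46 had such a signal in 1 or more lines on all arrays of the line, and 43 of them on all 9 arrays. Of the other 24 genes, 19 were above background on no array and 5 on some. Recently duplicated PRY-SPRY genes, such as TRIM43, TRIM48, TRIM64 and TRIM77, make up 9 of the 24, all of that list of 17 that the array names. TRIM49 is the member of these 9 that was above background anywhere, on T47D-PA6 replicates 2 and 3 with 35.2 and 12.9. TRIM63 and TRIM54 of striated muscle and TRIM71 of embryonic cells could not be tested either. A filter of this kind keeps a gene that is high in 1 line alone, so the counts below cover the genes that passed it and not the whole family.

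The gradient that the TRIM genes are read against is the order T47D-VC1, T47D-PA5, T47D-PA6 of 8 interferon-induced genes, MX1, ISG15, OAS1, OAS2, IFI6, IFI44, IFIT1 and IFIT3. Their mean on the log2 scale, relative to T47D-VC1, was 0.17, 0 and -0.17 on the T47D-VC1 arrays, 2.05, 4 and 3.86 on the T47D-PA5 arrays and 5.80, 6.54 and 6.55 on the T47D-PA6 arrays. The 3 lines did not overlap, and T47D-PA5 replicate 1 lay below the other arrays of its line. Over the 8 genes the log2 fold change had a median of 6.11 for T47D-PA6 over T47D-VC1, 3.26 for T47D-PA5 over T47D-VC1 (3.08 with IFI44 at its lower bound, since T47D-VC1 was at background there) and 2.91 for T47D-PA6 over T47D-PA5. A TRIM gene was counted on this gradient when it was higher in T47D-PA6 than in each of the other lines, with a limma adjusted p under 0.05 in both comparisons, and its T47D-PA5 mean lay above its T47D-VC1 mean.

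TRIM21, TRIM56 and TRIM69 met that rule. They are 3 of the 46 TRIM genes tested, and 1.26% of all genes tested met it. With the added demand that T47D-PA5 pass the test over T47D-VC1, 0 TRIM genes were left by limma, where 0.179% of all genes were left. At an unadjusted p under 0.05 in all 3 steps there were 3, TRIM21, TRIM25 and TRIM56, by limma and by the unpaired test that the study's methods name, beside 195 and 159 of all 20098 genes. Those methods name this test for the study's data in general, and for the arrays they define changed genes by fold change against the control. TRIM32 and TRIM37 followed the reverse order, lower in T47D-PA6 than in both other lines with T47D-PA5 between them, as 1.25% of all genes did. In 3 TRIM genes (TRIM21, TRIM25 and TRIM56) the arrays rose from T47D-VC1 through T47D-PA5 to T47D-PA6 with no overlap, which held for 1.35% of all genes, and in TRIM3 and TRIM37 they fell so, which held for 1.08%. The gradient count was 1, TRIM21 alone, without T47D-VC1 replicate 2 or 3, without any 1 of the T47D-PA5 arrays, and without T47D-PA6 replicate 2 or 3. In these fits 0.463% to 1.01% of all genes were on the gradient. The TRIM count was 2 with slide as a block, 3 with scan run as a block, and 1 by the unpaired test, where TRIM56 took the place of TRIM21. Beside these stand 1.4%, 2.31% and 0.189% of all genes. By that test after adjustment 0 of the 8 genes that define the gradient passed for T47D-PA6 over T47D-PA5, where limma passed 8. For T47D-PA5 over T47D-VC1 the unpaired test passed 0 of them and limma 6.

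The first question is what the line with PTH-AS at full length shows against the vector control. TRIM21, TRIM25, TRIM38, TRIM56 and TRIM69 rose in T47D-PA6 over T47D-VC1, and TRIM3, TRIM16, TRIM32, TRIM36 and TRIM37 fell. The 5 that rose are 10.9% of the TRIM genes tested, where 4.69% of all genes rose, and the 5 that fell are again 10.9%, where 5.33% of all genes fell. In either direction 10 TRIM genes passed, beside 10% of all genes. TRIM38 is 1 of the 5 that rose, and it passed the filter on dim probes through T47D-PA5 alone. With a filter that asks for signal well above background on all 9 arrays it was not tested, and 4 TRIM genes rose, beside 855 of 18237 genes. All 5 that rose belong to a list of 12 TRIM genes known as interferon-inducible, of which 10 were tested, and of the 36 TRIM genes tested outside that list 0 rose by limma and 5 fell. The list was drawn up with earlier results of these data known, so this split is a description and not independent support. At an unadjusted p under 0.05, 2 of those 36 were higher by limma, beside 2183 of the 20098 genes tested, and 4 by the unpaired test, beside 1919, which after adjustment also left 0 of the 36. In all, the unpaired test passed 4 of the 10 genes after adjustment, with TRIM21, TRIM25 and TRIM56 higher and TRIM37 lower, and TRIM38, TRIM69, TRIM3, TRIM16, TRIM32 and TRIM36 did not pass it. Some other limma fits called genes outside the list higher, TRIM35 with scan run as a block, TRIM29 without T47D-PA5 replicate 1 or with only the arrays of the lines compared, and 7 genes in the later scan run alone. The median log2 fold change was 0.54 in the list, -0.02 in the TRIM genes outside it, 0.02 in all TRIM genes and -0.03 in all genes tested, and the list's median was the same with TRIM38 at its bound. Leaving out 1 array moved the count of 10 to 4 without T47D-VC1 replicate 2, 5 without T47D-VC1 replicate 3, and 3 without T47D-PA6 replicate 2 or replicate 3. The share of all genes called also fell in these fits, to 5.08%, 3.55%, 3.94% and 3.47% in that order. With slide as a block the TRIM count was 12, and with scan run as a block 14, beside 11.4% and 19.6% of all genes.

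**Figure D1:**
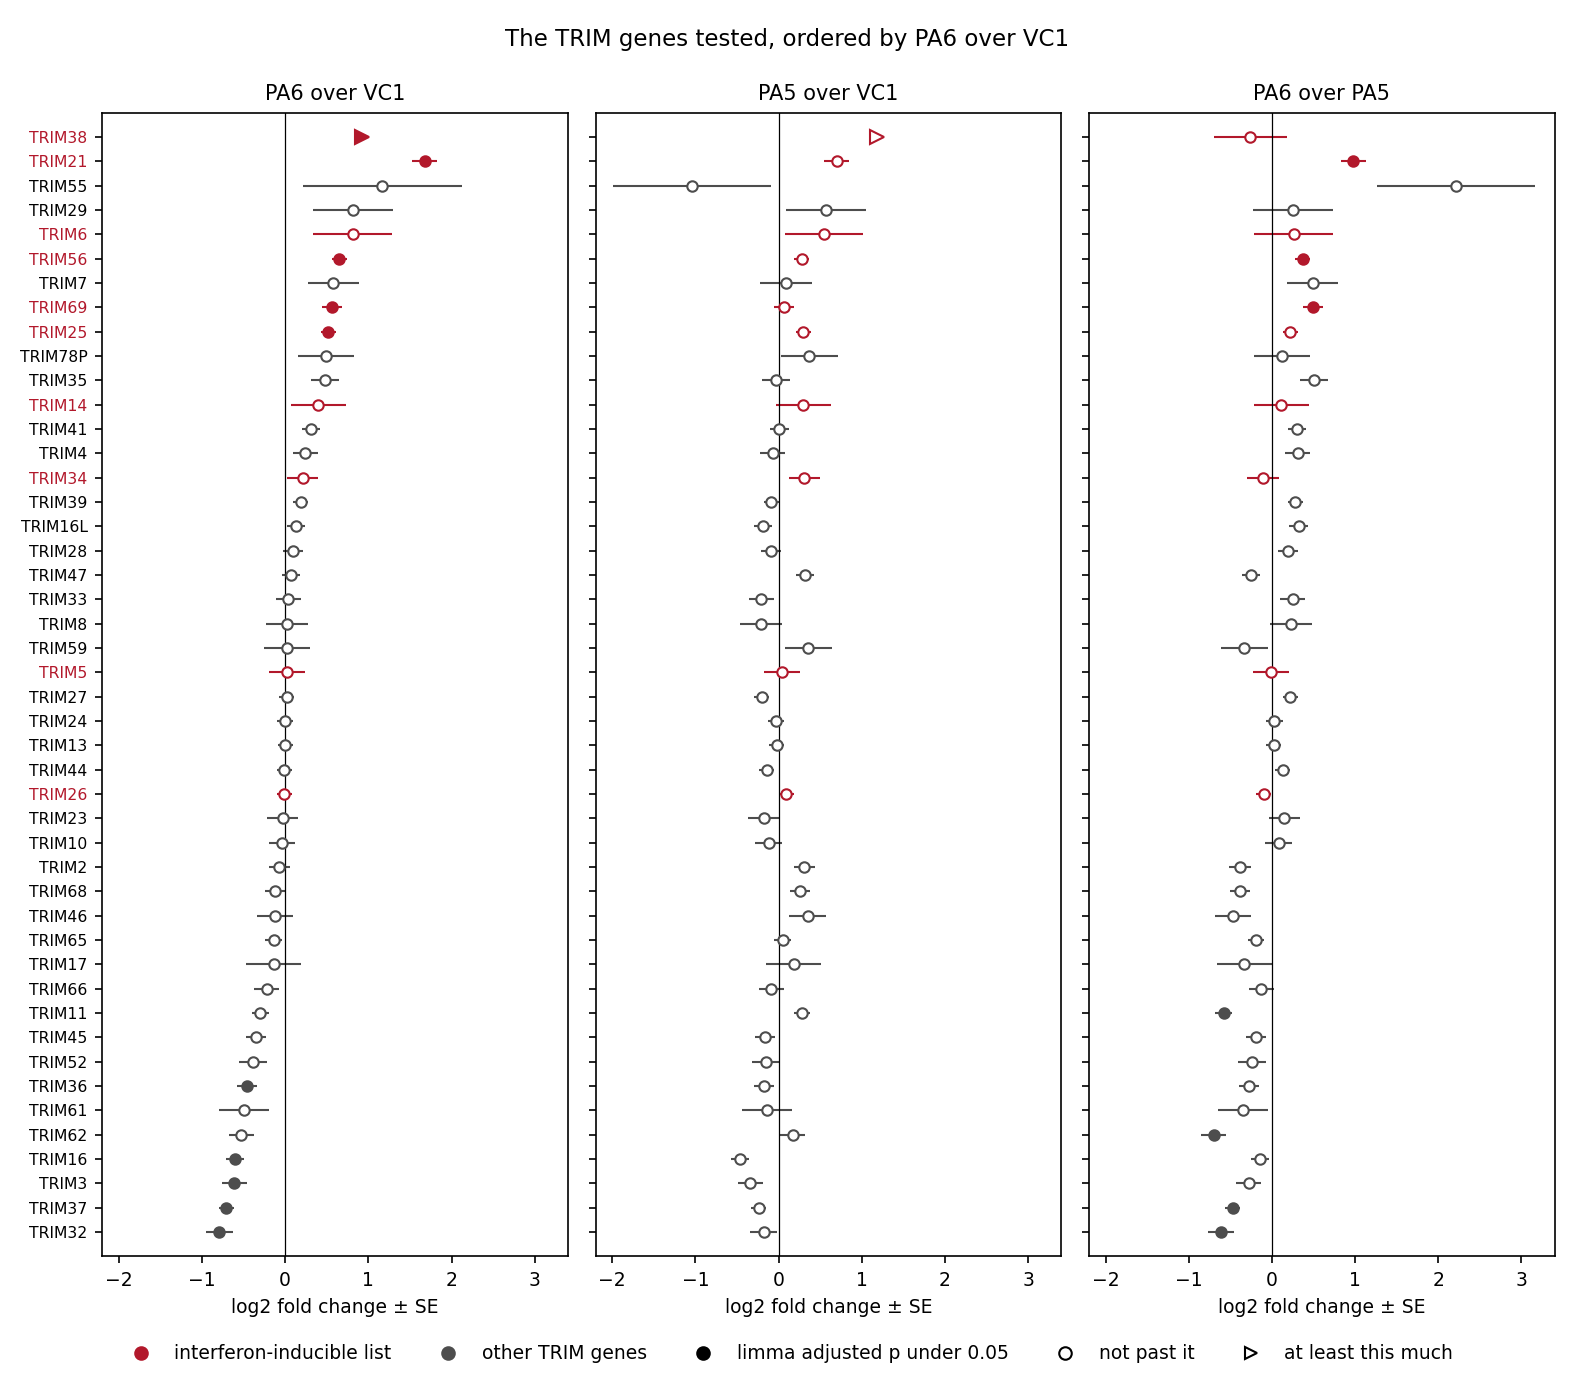
The log2 fold change of each of the 46 TRIM genes tested in the 3 comparisons, as points with bars of 1 SE, red for the 12-gene interferon-inducible list and filled where the limma adjusted p was under 0.05, with triangles for TRIM38 where only a lower bound is known. The filled points right of 0 are all red, the filled points left of 0 are all grey, and the middle panel has none. The list was drawn up with earlier results of these data known.

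The plot of fold changes in the 3 comparisons shows most TRIM genes close to 0 in each of them. TRIM55, TRIM29, TRIM6 and TRIM7 lie far from 0 with wide bars and did not pass the test between T47D-PA6 and T47D-VC1. In TRIM29, a gene named here after its values were seen, T47D-PA5 replicate 1 gave 229 and the other arrays of that line 60.9 and 50.9.

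The promoters of the 3 genes on the gradient are shown because the interferon-stimulated response element has a known core, GAAA repeated after any 2 bases, which was looked for on both strands. Sequences are from RefSeq, assembly GRCh38.p14, and each window runs from 250 bases before the start site of a transcript to 50 bases from it on, written 5′ to 3′ on the strand of the gene. TRIM21 is at chr11:4393653-4393952 on the minus strand, TRIM69 at chr15:44736278-44736577 on the plus strand and TRIM56 at chr7:101085231-101085530 on the plus strand. Capitals mark the letters that match.
TRIM21: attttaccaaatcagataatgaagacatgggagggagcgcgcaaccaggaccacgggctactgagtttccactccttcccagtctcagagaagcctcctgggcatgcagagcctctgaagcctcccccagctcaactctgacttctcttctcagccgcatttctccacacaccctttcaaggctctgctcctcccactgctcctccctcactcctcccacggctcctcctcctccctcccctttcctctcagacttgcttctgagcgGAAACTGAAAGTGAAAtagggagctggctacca
TRIM69: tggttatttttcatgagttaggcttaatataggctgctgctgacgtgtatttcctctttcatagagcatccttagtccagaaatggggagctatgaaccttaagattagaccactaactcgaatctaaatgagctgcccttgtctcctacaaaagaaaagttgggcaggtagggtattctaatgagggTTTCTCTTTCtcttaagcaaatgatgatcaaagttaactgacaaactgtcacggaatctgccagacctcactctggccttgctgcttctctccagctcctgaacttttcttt
TRIM56: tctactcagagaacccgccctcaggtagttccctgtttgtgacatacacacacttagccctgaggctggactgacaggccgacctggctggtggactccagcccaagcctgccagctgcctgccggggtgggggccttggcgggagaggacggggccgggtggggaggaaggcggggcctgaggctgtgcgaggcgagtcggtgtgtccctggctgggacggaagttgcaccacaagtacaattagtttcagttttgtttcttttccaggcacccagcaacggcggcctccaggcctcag
The capitals in TRIM21 are 2 matches that overlap, the bases GAAACTGAAAGTGAAA, and begin 18 and 24 bases on from the start site. The match in TRIM69 lies on the opposite strand and begins at -62 from the start site. TRIM56 has no such letters in its window.

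This core was present in 1195 of the 27305 genes with a promoter entry (4.38%) and in 9 of the 52 TRIM genes with an entry (17.3%). From the interferon-inducible list 6 of 11 had it, TRIM5, TRIM14, TRIM21, TRIM26, TRIM34 and TRIM69, and from the other TRIM genes 3 of 41, TRIM2, TRIM16 and TRIM44. Among the genes of the gradient's 8 that have an entry it was in 6 of 7. Of the 5 TRIM genes that rose in T47D-PA6 over T47D-VC1, TRIM21 and TRIM69 have the core, and TRIM25, TRIM38 and TRIM56 lack these letters in the window. Of the 5 that fell, TRIM16 has it. A second motif, the gamma-activated sequence TTCNNNGAA, which reads the same on both strands, was present in 9.38% of all genes and in 10 of the 52 TRIM genes (19.2%), 0 of them in the list, and in no TRIM promoter did its matches overlap those of the core. Without an entry are 18 TRIM names, TRIM22 and TRIM11 among them. A match is a description of the letters only.

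**Figure D2:**
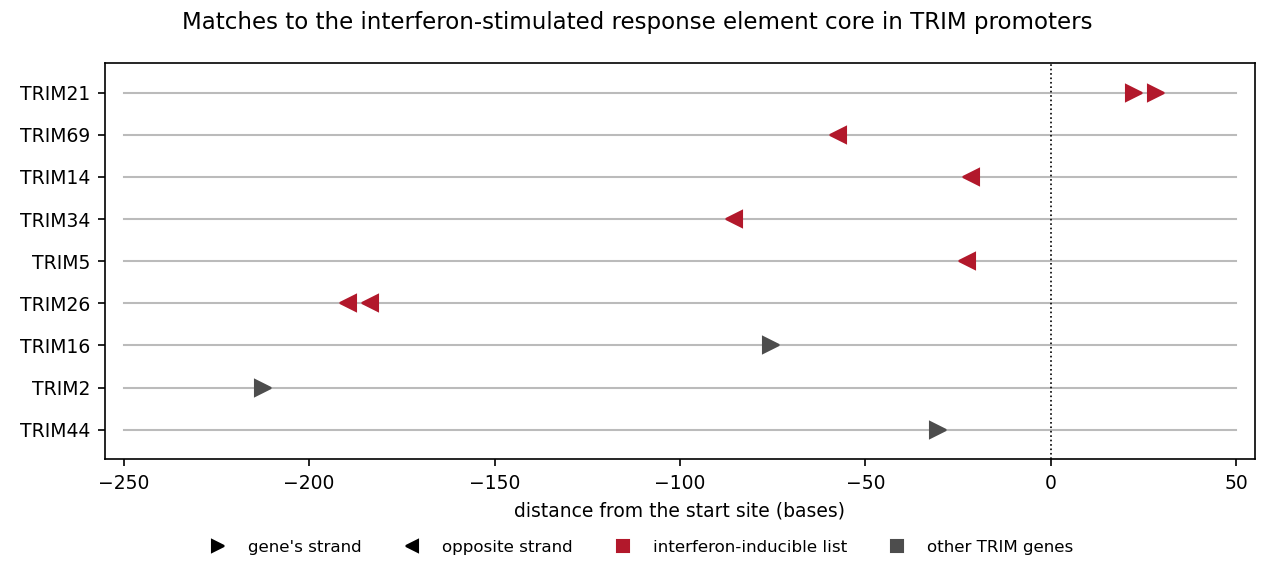
Position of each match to the response element core in the promoters of the 9 TRIM genes that have one, in bases from the start site (dotted line), with triangles pointing right for the strand of the gene and left for the opposite strand, and red for the interferon-inducible list. The 2 matches of TRIM21 lie after the start site and those of the other 8 genes before it.

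The map of motif positions also shows that TRIM26, a gene of the list that did not pass the test in any comparison, has a pair of matches at -194 and -188.

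TRIM21 is the Fc receptor of the cytosol, a ligase that binds antibody on incoming virus and sends it to the proteasome. Its probe on chromosome 11 gave 46.9, 59.3 and 53.5 in T47D-VC1, 73.2, 102 and 84.2 in T47D-PA5 and 158, 175 and 174 in T47D-PA6, as normalized intensity. The lowest T47D-PA5 array was above the highest T47D-VC1 array, and the lowest T47D-PA6 array above the highest T47D-PA5 array. TRIM21 rose in T47D-PA6 over T47D-VC1 by 1.68 ± 0.15 (log2, SE, n = 3 arrays a line; limma adjusted p = 0.000609) and over T47D-PA5 by 0.98 ± 0.15 (limma adjusted p = 0.00665). T47D-PA5 over T47D-VC1 was 0.70 ± 0.15 with a limma adjusted p of 0.057, which did not pass. Without T47D-PA5 replicate 1 it was 0.81 and the limma adjusted p 0.0378, and with slide or scan run as a block or with a 75th percentile shift the limma adjusted p was 0.0112, 0.0117 or 0.042. With normexp background correction the values were smaller, 1.04 for T47D-PA6 over T47D-VC1, 0.66 over T47D-PA5, and 0.38 for T47D-PA5 over T47D-VC1. By the unpaired test the adjusted p of T47D-PA6 against T47D-PA5 was 0.0571. Within the earlier scan run the T47D-PA6 over T47D-VC1 difference was 1.76, within the later run 1.64 and within the slide that the lines shared in that run 1.71.

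TRIM56, a ligase that restricts several RNA viruses, gave 602, 554 and 529 in T47D-VC1, 657, 685 and 704 in T47D-PA5 and 897, 887 and 857 in T47D-PA6. Again the 3 lines did not overlap, and the step between neighbouring lines was small beside that of TRIM21. TRIM56 rose over T47D-VC1 by 0.65 ± 0.09 (limma adjusted p = 0.00446). Over T47D-PA5 it rose by 0.37 ± 0.09 (limma adjusted p = 0.0382), and T47D-PA5 over T47D-VC1 was 0.28 ± 0.09 (limma adjusted p = 0.178). Within the earlier and later scan runs T47D-PA6 over T47D-VC1 was 0.58 and 0.69, and T47D-PA6 over T47D-PA5 was 0.45 and 0.33. The call against T47D-PA5 was lost without T47D-VC1 replicate 2 or 3, any 1 of the T47D-PA5 arrays, or T47D-PA6 replicate 2 or 3, with limma adjusted p from 0.0625 to 0.135, with slide as a block (0.0597) and with a 75th percentile shift (0.0677). The call against T47D-VC1 was kept in each of these fits.

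TRIM69, a microtubule-associated member that restricts vesicular stomatitis virus, gave 165, 167 and 145 in T47D-VC1, 144, 179 and 178 in T47D-PA5 and 227, 233 and 243 in T47D-PA6. T47D-PA5 overlapped T47D-VC1, and T47D-PA6 lay above both. The rise was 0.56 ± 0.12 against T47D-VC1 (limma adjusted p = 0.0221) and was 0.49 ± 0.12 when set against T47D-PA5 (limma adjusted p = 0.0337), and T47D-PA5 over T47D-VC1 was 0.07 ± 0.12 (limma adjusted p = 0.849). Within the earlier scan run T47D-PA5 over T47D-VC1 was -0.19 and within the later run 0.20, so the place of T47D-PA5 above T47D-VC1 turned between runs, while T47D-PA6 over T47D-VC1 was 0.46 and 0.61. The call over T47D-VC1 was lost without T47D-VC1 replicate 2 or 3 or T47D-PA6 replicate 2 or 3 (limma adjusted p 0.051 to 0.0904). The call over T47D-PA5 was lost without T47D-VC1 replicate 2, any 1 of the T47D-PA5 arrays, or T47D-PA6 replicate 2 or 3 (limma adjusted p 0.0518 to 0.123), and with normexp background correction it was 0.31 (0.0506).

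**Figure D3:**
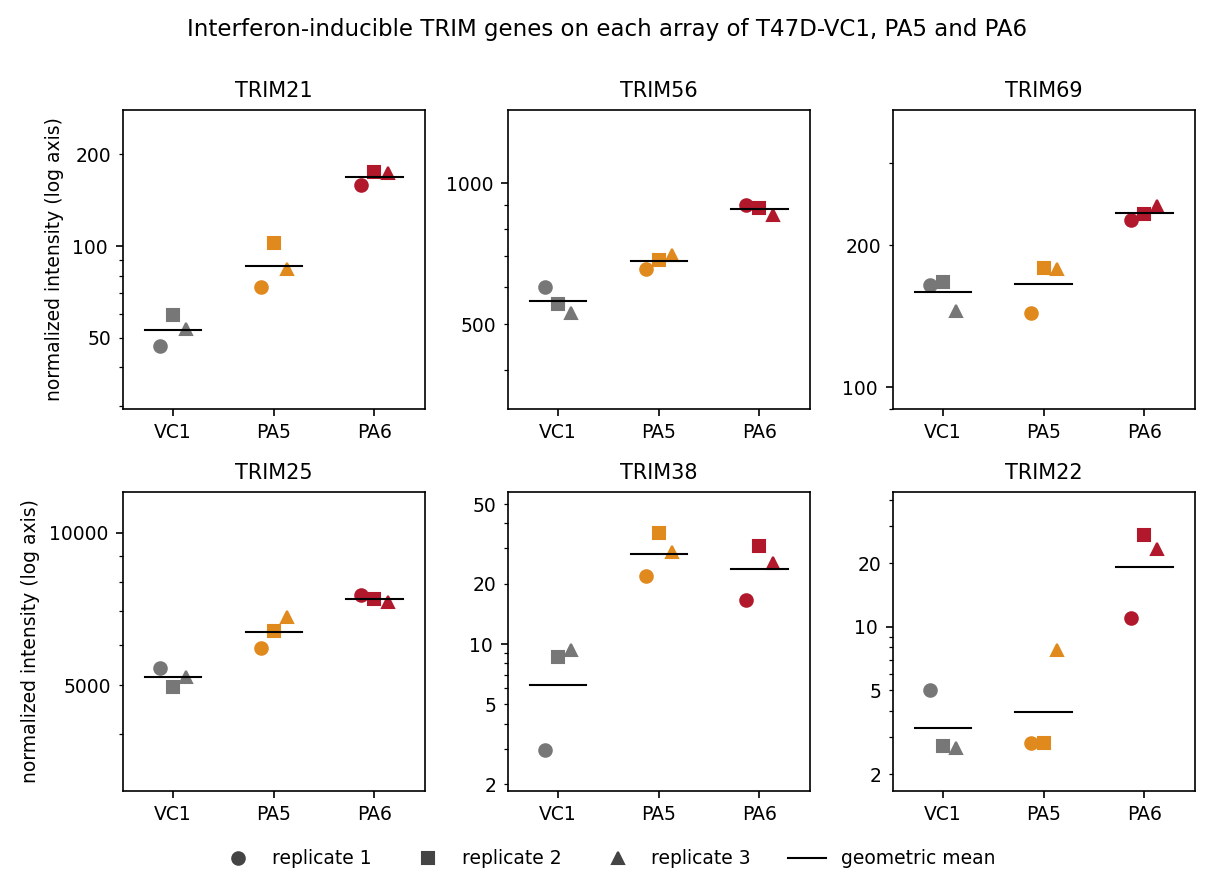
Normalized intensity on a log axis of 6 interferon-inducible TRIM genes on each of the 9 arrays, with 1 point per array, the point's shape for the replicate and a line for the geometric mean of each line. In TRIM21, TRIM56 and TRIM25 the 3 lines do not overlap, and in TRIM38 the T47D-PA5 and T47D-PA6 arrays overlap.

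TRIM25 adds ubiquitin to the RNA sensor RIG-I and so helps to switch on interferon. It gave 5410, 4950 and 5200 in T47D-VC1, 5930, 6390 and 6820 in T47D-PA5 and 7520, 7410 and 7300 in T47D-PA6. The lines were ordered as in TRIM56 with no overlap, as the plot of single arrays shows. TRIM25 rose in T47D-PA6 over T47D-VC1 by 0.52 ± 0.09 (limma adjusted p = 0.0124), and the values of 0.30 ± 0.09 for T47D-PA5 over T47D-VC1 (0.165) and 0.22 ± 0.09 for T47D-PA6 over T47D-PA5 (0.185) did not pass. The call was lost without T47D-VC1 replicate 3 or T47D-PA6 replicate 2 or 3, with limma adjusted p from 0.0532 to 0.055. Within the earlier and later runs T47D-PA6 over T47D-VC1 was 0.47 and 0.54.

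TRIM38, which dampens signalling from Toll-like receptors, had another pattern. Its signals were 2.96, 8.66 and 9.36 in T47D-VC1, none of them above background, 21.9, 35.9 and 28.9 in T47D-PA5, and 16.6, 31 and 25.4 in T47D-PA6, where replicates 2 and 3 were above background. Every array of the lines that carry PTH-AS sequence was above every T47D-VC1 array, and these lines overlapped with each other. Against T47D-VC1, TRIM38 was higher by at least 1.89-fold in T47D-PA6 (limma adjusted p = 0.0312) and by at least 2.27-fold in T47D-PA5 (limma adjusted p = 0.052, not past the threshold). T47D-PA6 over T47D-PA5 was -0.26 ± 0.44 (limma adjusted p = 0.767). TRIM38 passed the filter on dim probes through T47D-PA5 alone, the line where it was highest. Its tests against T47D-VC1 were thus made on a gene that the difference itself let in, and no conclusion is drawn from them. With a filter that asks for signal well above background on all 9 arrays it was not tested. The call in T47D-PA6 was lost without T47D-VC1 replicate 2 (0.0504), T47D-PA5 replicate 3 (0.0551), T47D-PA6 replicate 2 (0.107) or T47D-PA6 replicate 3 (0.102). It was also lost with normexp background correction (0.0526), where the folds of both lines over T47D-VC1 fell short of these bounds, with no filter on dim probes (0.0955) and with only the arrays of the lines compared (0.0728), and by the unpaired test (adjusted p 0.186). T47D-PA5 passed without T47D-VC1 replicate 1 (0.0417) or T47D-PA6 replicate 1 (0.0442), with slide (0.00981) or scan run (0.00318) as a block, with a 75th percentile shift (0.0242) and with an intensity trend in the prior variance (0.0387), among other settings. All but that of the unpaired test are limma adjusted p.

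TRIM22, a nuclear member that restricts HIV and influenza virus, was too dim to be tested. It gave 5.03, 2.73 and 2.67 in T47D-VC1, 2.81, 2.80 and 7.75 in T47D-PA5 and 11, 27.3 and 23.5 in T47D-PA6. T47D-PA6 replicates 2 and 3 were the only arrays of the 9 above background, and no T47D-PA6 array overlapped the other lines. By the bound used here T47D-PA6 was at least 1.54-fold higher than T47D-VC1 and at least 1.48-fold higher than T47D-PA5. Its mean takes in replicate 1, at 11 and not above background, so these bounds are not strict. In a fit without the filter on dim probes its limma adjusted p was 0.0591 against T47D-VC1 and 0.0815 against T47D-PA5. TRIM31, a gene of the MHC region, was above background on no array.

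The other 5 genes of the list did not pass the test in any comparison. TRIM5, whose product blocks retroviral capsids, gave 52.3 to 93.1 in T47D-VC1, 62.1 to 71.3 in T47D-PA5 and 55.4 to 80.1 in T47D-PA6, with a log2 fold change of T47D-PA6 over T47D-VC1 of 0.02 ± 0.22. TRIM26, another MHC gene, was at -0.01 ± 0.09 and TRIM34, a near relative of TRIM5, at 0.21 ± 0.19. In TRIM34 a probe that lies elsewhere in the gene gave 0.65 (limma adjusted p = 0.0918). TRIM14, an adaptor at mitochondria for antiviral signalling, was at 0.40 ± 0.33, with 1.18 within the earlier scan run and 0.02 within the later, so that its difference was in replicate 1.

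TRIM6, which makes ubiquitin chains that activate the kinase IKBKE, gave 114, 283 and 287 in T47D-VC1, 223, 358 and 364 in T47D-PA5 and 195, 517 and 496 in T47D-PA6. Replicate 1 was the lowest array of every line and the lines overlapped. T47D-PA6 over T47D-VC1 was 0.81 ± 0.47 (limma adjusted p = 0.32), with 0.77 within the earlier scan run and 0.83 within the later. With slide as a block the limma adjusted p was 0.0371, and with scan run as a block 0.0112. Its second tested probe gave -0.27 (limma adjusted p = 0.889).

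The TRIM genes that fell in T47D-PA6 all lie outside the interferon-inducible list. TRIM37, a ligase that keeps centrosome assembly in check and whose gene on chromosome 17 is often amplified in breast cancer, gave 1900, 1790 and 1760 in T47D-VC1, 1520, 1610 and 1490 in T47D-PA5 and 1210, 1070 and 1060 in T47D-PA6. The 3 lines were apart on every array, in the order opposite to TRIM21. TRIM37 fell by 0.71 ± 0.09 against T47D-VC1 (limma adjusted p = 0.00384). Against T47D-PA5 it fell by 0.47 ± 0.09 (limma adjusted p = 0.0196), and T47D-PA5 over T47D-VC1 was -0.24 ± 0.09 (0.271). Its second probe fell by 0.70 against T47D-VC1 (limma adjusted p = 0.0311). The call against T47D-VC1 was made without each of the 9 arrays in turn. That against T47D-PA5 was lost without T47D-PA5 replicate 2 or 3 or T47D-PA6 replicate 2 or 3 (limma adjusted p 0.0653 to 0.0879). Within the earlier and later scan runs T47D-PA6 over T47D-VC1 was -0.65 and -0.74.

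TRIM32, an NHL-repeat ligase of muscle whose loss causes a limb-girdle dystrophy, gave 1200, 1110 and 1040 in T47D-VC1, 1170, 917 and 891 in T47D-PA5 and 792, 560 and 603 in T47D-PA6. T47D-PA6 was below both other lines, which overlapped. It fell by 0.79 ± 0.16 against T47D-VC1 (limma adjusted p = 0.0207), and the fall against T47D-PA5 had a limma adjusted p of 0.049, with a log2 fold change of -0.61 ± 0.16. The first of these was lost without T47D-VC1 replicate 2 or 3 or T47D-PA6 replicate 2 or 3 (limma adjusted p 0.0597 to 0.0819) and the second without any 1 array other than T47D-PA6 replicate 1 (0.0503 to 0.173). Within the earlier and later runs T47D-PA6 over T47D-VC1 was -0.60 and -0.89.

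TRIM3, a second NHL-repeat member, gave 139, 180 and 192 in T47D-VC1, 136, 131 and 135 in T47D-PA5 and 125, 116 and 92.5 in T47D-PA6. Each line lay below the one before it with no overlap, though T47D-VC1 replicate 1 was close to T47D-PA5. TRIM3 fell by 0.61 ± 0.15 in T47D-PA6 against T47D-VC1 (limma adjusted p = 0.0426), and its second probe by 0.74 (limma adjusted p = 0.014). Within the earlier scan run the difference was -0.15 and within the later -0.84. The call was kept without T47D-VC1 replicate 1 or T47D-PA6 replicate 1 and lost without each of the other 7 arrays (limma adjusted p 0.0535 to 0.148), with slide as a block (0.0834) and with a 75th percentile shift (0.0535).

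TRIM16, which has no RING finger and takes part in the autophagy of damaged endomembranes, gave 334, 367 and 289 in T47D-VC1, 256, 222 and 238 in T47D-PA5 and 227, 211 and 211 in T47D-PA6. Both lines with PTH-AS sequence were below the vector control and overlapped with each other. TRIM16 fell by 0.60 ± 0.11 in T47D-PA6 against T47D-VC1 (limma adjusted p = 0.0158), and T47D-PA5 over T47D-VC1 was -0.46 ± 0.11 (limma adjusted p = 0.0948, and 0.0484 with scan run as a block). The call was lost without T47D-VC1 replicate 2 or T47D-PA6 replicate 2 or 3 (limma adjusted p 0.0528 to 0.0686). Within the runs the difference was -0.56 and -0.63.

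TRIM36, a microtubule-binding member with a COS box, gave 369, 294 and 319 in T47D-VC1, 284, 275 and 305 in T47D-PA5 and 218, 227 and 267 in T47D-PA6. T47D-PA6 was below the vector control on every array. The fall of 0.46 ± 0.12 came with a limma adjusted p of 0.0498, and it was lost without any 1 of the 9 arrays (0.059 to 0.154). Within the earlier and later runs the difference was -0.76 and -0.31. A second probe under this name fell by 1.24 (limma adjusted p = 0.0298), but it lies on the opposite strand to the gene.

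**Figure D4:**
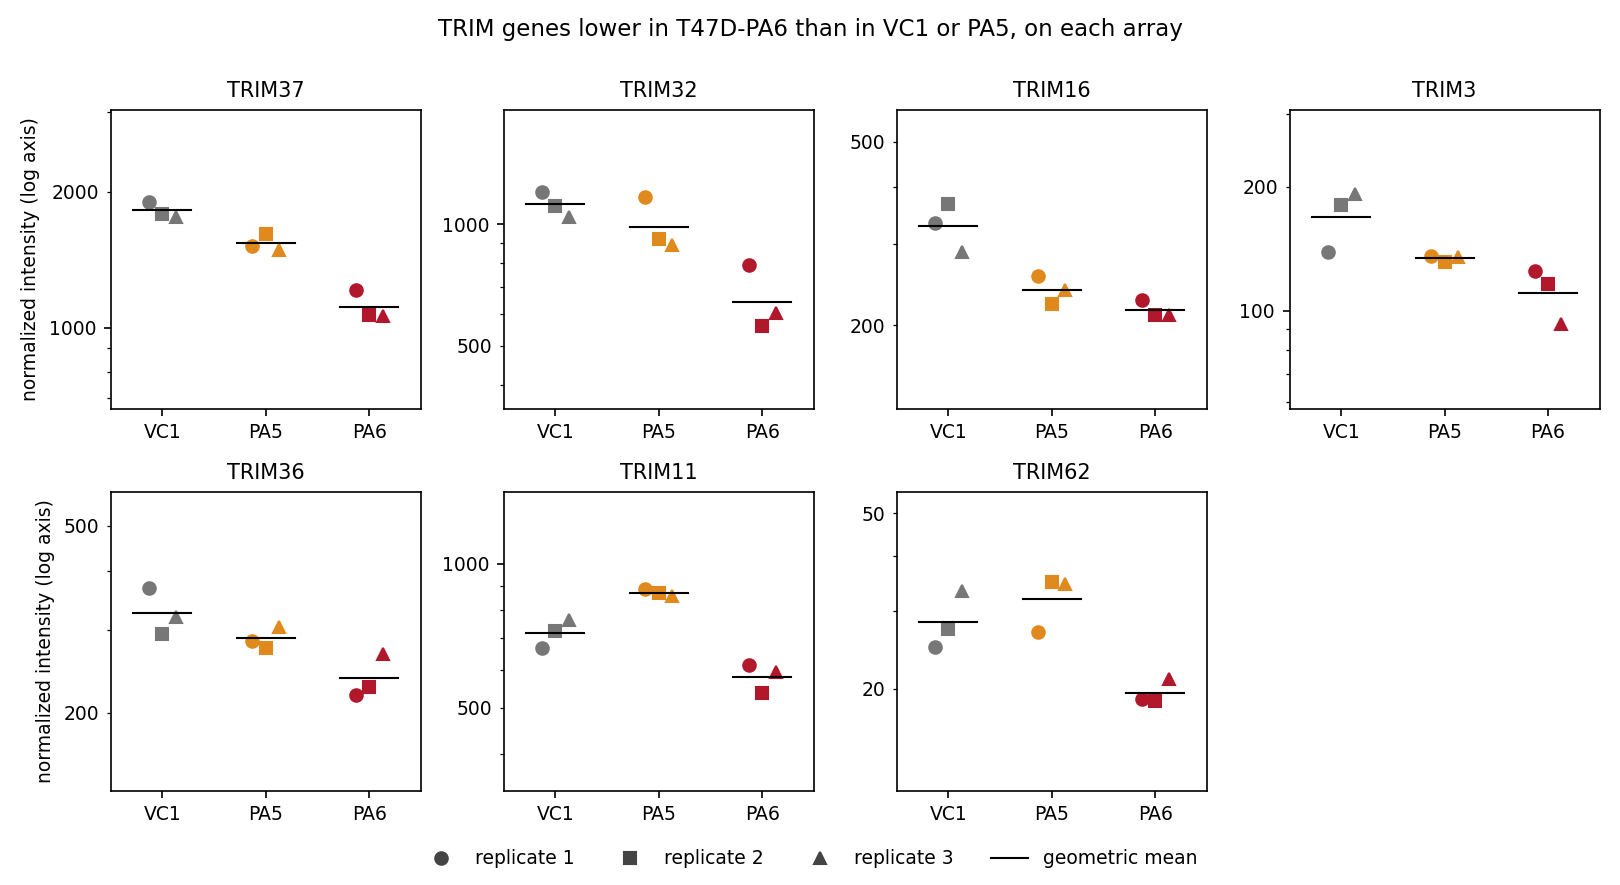
Normalized intensity on a log axis of the 7 TRIM genes that were lower in T47D-PA6 than in T47D-VC1 or T47D-PA5, with 1 point per array, the point's shape for the replicate and a line for the geometric mean of each line. In TRIM37 and TRIM3 the 3 lines do not overlap, and in TRIM11 the T47D-PA5 arrays are the highest.

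The plot of the genes that were lower shows T47D-PA5 between the other lines in TRIM37, TRIM32, TRIM16, TRIM3 and TRIM36, and above T47D-VC1 in TRIM11 and TRIM62.

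The line with the incomplete sequence was compared with the vector control in the same way. Between T47D-PA5 and T47D-VC1 limma called 0 of the 46 TRIM genes, where it called 1.37% of all genes higher, 0.299% lower and 1.67% in either direction. At an unadjusted p under 0.05 there were 9 TRIM genes by limma, beside 3133 of the 20098 genes tested, and 10 by the unpaired test, beside 3008. The unpaired test after adjustment also gave 0. The median log2 fold change was -0.01 over the TRIM genes, 0.30 in the interferon-inducible list and -0.09 outside it, with -0.03 over all genes. The count was 1 without T47D-VC1 replicate 1, without T47D-PA5 replicate 1 and without T47D-PA6 replicate 1, beside 2.1%, 2.09% and 3.08% of all genes. It was 2 with slide as a block and 3 with scan run as a block, beside 3.02% and 5.16%. TRIM21 and TRIM38, described above, are the members nearest to the threshold. As TRIM38 passed the filter on dim probes through T47D-PA5 alone, no conclusion is drawn from its place there.

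The third comparison sets T47D-PA6 against T47D-PA5. TRIM21, TRIM56 and TRIM69 rose, as 3.65% of all genes did, and TRIM11, TRIM32, TRIM37 and TRIM62 fell, as 6.06% of all genes did. In either direction 7 TRIM genes passed, beside 9.7% of all genes. The median log2 fold change was 0.16 in the list and -0.06 outside it, with 0 over all genes. The count of 7 was 4 without T47D-VC1 replicate 2 and 2 without T47D-PA5 replicate 2 or 3 or T47D-PA6 replicate 2 or 3. The share of all genes called also fell in these fits, to 7.77%, 4.21%, 3.85%, 3.62% and 3.61% in that order. With slide as a block the TRIM count was again 7, but with TRIM56 lost and TRIM16L, which is outside the list, called higher. With scan run as a block it was 12. These 2 fits called 9.72% and 17.8% of all genes. The unpaired test after adjustment passed 3, TRIM56 higher and TRIM11 and TRIM68 lower, so TRIM21, TRIM69, TRIM32, TRIM37 and TRIM62 did not pass it. This comparison shares arrays with each of the others.

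TRIM11, a ligase that acts on proteins prone to misfold, gave 667, 723 and 762 in T47D-VC1, 884, 869 and 858 in T47D-PA5 and 614, 536 and 595 in T47D-PA6. Every T47D-PA5 array was above, and every T47D-PA6 array below, all arrays of the vector control. TRIM11 fell by 0.58 ± 0.10 in T47D-PA6 against T47D-PA5 (limma adjusted p = 0.00928), and the call was made without each of the 9 arrays in turn. Within the earlier and later runs the difference was -0.52 and -0.61. A second probe of the gene gave -0.22 (limma adjusted p = 0.522), and with the mean of both probes the limma adjusted p was 0.0725.

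TRIM62, a ligase known for its part in epithelial polarity, was dim, with 24.9, 27.3 and 33.3 in T47D-VC1, 26.9, 34.9 and 34.5 in T47D-PA5 and 19, 18.8 and 21.1 in T47D-PA6. T47D-PA6 was below both other lines, which overlapped. It fell by 0.70 ± 0.15 against T47D-PA5 (limma adjusted p = 0.0232), and T47D-PA6 over T47D-VC1 was -0.53 ± 0.15 (limma adjusted p = 0.0596). The call was lost without T47D-PA5 replicate 2 or 3 or T47D-PA6 replicate 2 or 3 (limma adjusted p 0.0625 to 0.091), with a 75th percentile shift (0.0533) and with normexp background correction, where the difference was -0.19 (0.179). No filter on dim probes, an intensity trend in the prior variance and the unpaired test lost the call too. Against T47D-VC1 TRIM62 passed without replicate 1 of T47D-VC1 (0.0416) or of T47D-PA5 (0.0399) and with slide as a block (0.0429). Within the runs T47D-PA6 over T47D-PA5 was -0.50 and -0.80.

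Read by subfamily, the genes that fell in T47D-PA6 against T47D-VC1 had several kinds of C terminus. The 5 genes that rose are in none of the subfamily lists given here, and PRY-SPRY members as a whole were not counted. The counts stand beside 4.69% of all genes that rose and 5.33% that fell. Whether a subfamily differs from all genes was not tested. The PHD-bromodomain members, cofactors of transcription such as TRIM24 of nuclear receptors and TRIM28 of KRAB zinc fingers, were all 4 tested and 0 passed, with log2 fold changes of -0.22 to 0.10. At an unadjusted p under 0.05 there were again 0, by limma and by the unpaired test. A second TRIM24 probe fell by 0.54 (limma adjusted p = 0.0484). NHL-repeat members had 3 of 4 tested and 2 that fell, TRIM3 and TRIM32. Of the COS-box members 3 of 8 were tested and TRIM36 fell. Among the 10 with another C terminus or no RING finger, all tested, TRIM16 and TRIM37 fell. TRIM45 of this list was called lower too with slide, replicate number or scan run as a block, and in the later scan run alone. In the main limma fit 0 of the 10 rose, with or without adjustment, and by the unpaired test 1 was higher before adjustment and 0 after it.

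By position, a list of 8 TRIM genes of the cluster at 11p15 on chromosome 11 holds TRIM21 with TRIM5, TRIM6, TRIM22 and TRIM34, and 7 of the 8 were tested. TRIM21 rose, TRIM3 fell, and TRIM5, TRIM6, TRIM34, TRIM66 and TRIM68 did not pass. The median of the 7, which go both ways, was 0.02. In and beside the MHC on chromosome 6, where TRIM38, TRIM26, TRIM27 and TRIM39 lie, 5 of 8 were tested, and the median was again 0.02. Only TRIM38 passed there, and as it came through the filter on dim probes by T47D-PA5 alone, no conclusion is drawn from it. Of all genes 10% passed in either direction.

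Where a gene has several probes, they were not always of 1 value. Of the 70 genes 28 have more than 1 probe, and 17 have several that were tested. In 5 of the 17 the probes lay more than 0.5 apart on the log2 scale in T47D-PA6 over T47D-VC1, TRIM6, TRIM14, TRIM24, TRIM36 and TRIM41. At least 1 probe passed in 4 genes, and all tested probes passed in the same direction in TRIM3 and TRIM37. Those under the name TRIM36 did too, but 1 of them lies on the opposite strand to the gene. TRIM21, TRIM25, TRIM38, TRIM56 and TRIM69 each rest on 1 tested probe.

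**Figure D5:**
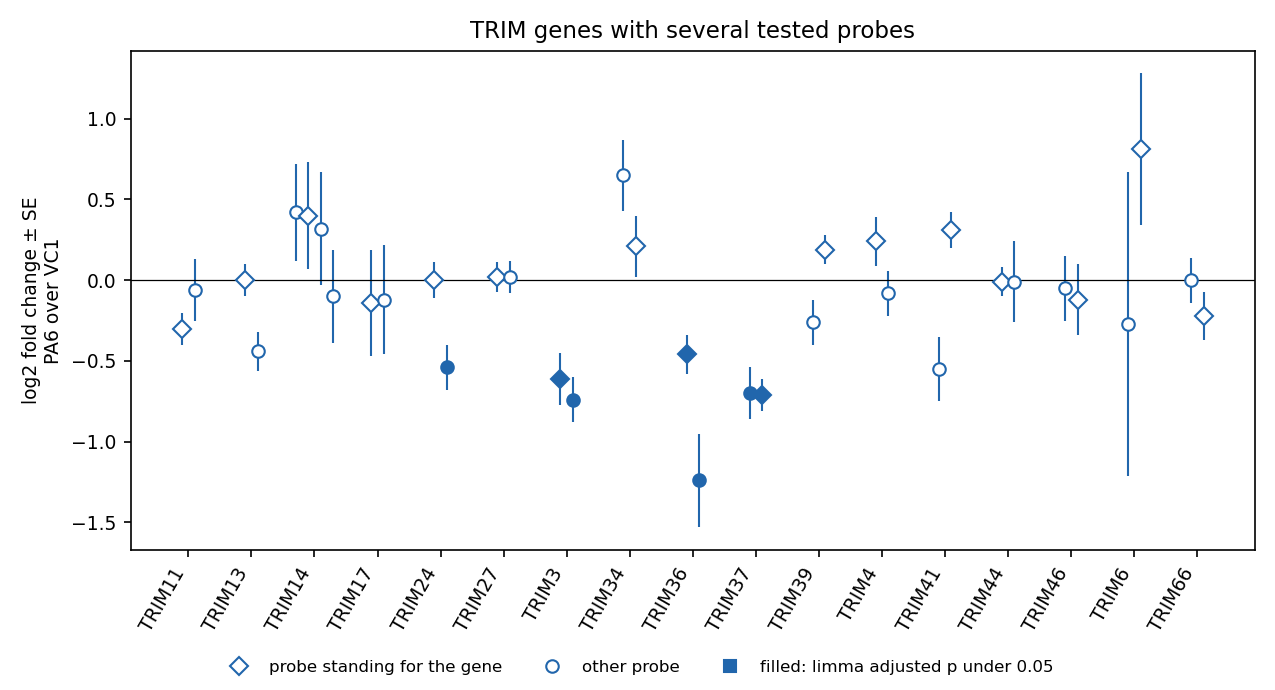
The log2 fold change of T47D-PA6 over T47D-VC1 for each tested probe of the 17 TRIM genes that have several, with bars of 1 SE, diamonds for the probe that stands for the gene and filled symbols for a limma adjusted p under 0.05. The probes of TRIM3 and of TRIM37 lie close together, and those of TRIM6, TRIM36 and TRIM41 apart.

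The plot of single probes shows in TRIM41 a value of 0.31 for the probe that stands for the gene and -0.55 for the other, and neither passed.

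The proteins that TRIM ligases act on or are switched on by were read as well, and MB21D1, the DNA sensor cGAS, was at background. DDX58, the sensor RIG-I that TRIM25 modifies, rose by 1.83 ± 0.25 over T47D-VC1 (limma adjusted p = 0.00435), and ZC3HAV1, an antiviral protein that works with TRIM25, by 0.62 ± 0.14 (limma adjusted p = 0.0327). TMEM173, the adaptor STING and a substrate of TRIM56, rose by 1.19 ± 0.14 (limma adjusted p = 0.00206). IKBKE, the kinase that TRIM6 helps to activate, fell by 1.12 ± 0.14 (limma adjusted p = 0.00322). RNF135, a ligase that also modifies RIG-I, was at -0.22 ± 0.10 and did not pass. Nor did MAVS at -0.03, TBK1 at -0.10, IRF3 at -0.01, IKBKG at -0.17 and VCP at -0.27, and 10% of all genes passed in either direction. DDX58 and TMEM173 were on the gradient, but their T47D-PA5 arrays overlapped those of T47D-VC1. Within the earlier scan run T47D-PA5 over T47D-VC1 was -0.50 for DDX58 and -0.23 for TMEM173, and within the later 0.82 and 0.26, so the place of T47D-PA5 turned between runs in both genes. CBX5, a heterochromatin protein that TRIM28 works with, fell from 4150, 5310 and 5150 in T47D-VC1 to 2780, 1910 and 2180 in T47D-PA6 (limma adjusted p = 0.00495), while CBX1 at -0.31 (limma adjusted p = 0.0634), CBX3 at -0.11, SETDB1 at -0.32 and TRIM28 itself at 0.10 ± 0.12 did not pass. Against T47D-PA5, SETDB1 fell by 0.63 (limma adjusted p = 0.0208) and CBX1 by 0.40 (0.0292). By the unpaired test after adjustment the rises of DDX58 and ZC3HAV1 and the falls of IKBKE and CBX5 against T47D-VC1 did not pass.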

How the data were processed

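RNA of T47D-VC1, T47D-PA5 and T47D-PA6 was measured with 3 one-color SurePrint G3 Human Gene Expression v3 arrays a line. The authors deposited the intensity of each spot, background-subtracted and detrended within the array by Feature Extraction, and a table of quantile-normalized values made in R. The labels and the methods name Feature Extraction 9.5.1.1, and the file headers name 10.7.1.1. The scanning, spot finding and background subtraction were not repeated.

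From 62976 spots an array, 60901 were not controls and stand for 58201 probes. Between 46 and 117 spots an array marked as outliers by Feature Extraction were left out, and 0 were saturated. A probe's spots were averaged as log2 values, and the arrays were then quantile-normalized. Tested were the 26171 probes, of 20098 gene names, that Feature Extraction marks as well above background on all arrays of 1 line or more. The tested probe with the highest mean stands for its gene. Gene names are those of the files, and probe positions there are on hg19. On the 9 arrays the dimmest signal well above background lay from 9.59 to 15.2, and the number of arrays limits the precision.

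Comparisons used limma 3.58.1 (lmFit, then eBayes) under R 4.3.3, fitted once to all 9 arrays with 6 residual degrees of freedom. P-values were adjusted by Benjamini-Hochberg over all 20098 genes, at a threshold of 0.05. A log2 fold change is given with its standard error from that fit. Where no array of a line was above background, a fold is a bound against the lowest signal well above background. The mean of the other line takes in any array of it at background, as for TRIM22 and TRIM38 in T47D-PA6, where the bound is not strict. An exact two-sided permutation test of 3 against 3 arrays cannot go below 0.1, so none was run. Tables were read with data.table (1.17.8), and promoters were searched with Python 3.11.15 and drawn with matplotlib 3.10.9. The fit was tested on simulated data.

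The members and the gene lists were chosen with earlier results of these data known. Named are the TRIM genes past the threshold in any comparison, the members of the interferon-inducible list (TRIM5, TRIM6, TRIM14, TRIM21, TRIM22, TRIM25, TRIM26, TRIM31, TRIM34, TRIM38, TRIM56 and TRIM69), the 8 genes of the gradient and some genes from a list of partners, not all of which are printed, and other names, such as TRIM7, TRIM16L, TRIM29, TRIM35, TRIM41, TRIM49 and TRIM55, were picked once their values had been seen. Tried besides were a 75th percentile shift, normexp (offset 50), values as normalized by the authors, a stricter filter on dim probes or none, slide and replicate number as blocks, a prior variance with an intensity trend, the methods' unpaired test, a fit to the compared lines alone, the mean of all probes, and each array left out in turn. The array holds no measure of protein, and ubiquitin ligase activity was not measured.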

Additional observations from a re-analysis of the deposited data

Results flagged for a closer look

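TRIM11 lay on opposite sides of T47D-VC1 in the lines that carry PTH-AS sequence. Its log2 fold change over T47D-VC1 was 0.28 in T47D-PA5 and -0.30 in T47D-PA6, with every T47D-PA5 array above and every T47D-PA6 array below all T47D-VC1 arrays. Neither value passed the test against T47D-VC1 (limma adjusted p 0.207 and 0.0857). The difference between the lines was itself tested, as T47D-PA6 over T47D-PA5, and was -0.58 ± 0.10 (limma adjusted p = 0.00928). A second probe of the gene gave 0.15 and -0.06 over T47D-VC1.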

How the results depend on the processing

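The results were recomputed under 22 alternatives. For the 17 named TRIM genes, 51 log2 fold changes were followed through them. They stayed on the same side of the threshold in 988 cases, came to pass it in 32 and failed to in 99, and none that passed the test turned its direction. TRIM21, TRIM56 and TRIM37 differed between T47D-PA6 and T47D-VC1 in all 22. TRIM21 was on the gradient in 21 of the 22, TRIM56 in 12 and TRIM69 in 11.

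The count of TRIM genes was 10 for T47D-PA6 against T47D-VC1, 0 for T47D-PA5 against T47D-VC1, 7 for T47D-PA6 against T47D-PA5 and 3 on the gradient. A 75th percentile shift gave 2 for T47D-PA5 against T47D-VC1, slide as a block 2, and an intensity trend in the prior variance 1, beside 2.02%, 3.02% and 2.39% of all genes. With no filter on dim probes the counts against T47D-VC1 and T47D-PA5 for T47D-PA6 were 6 and 4, in a fit that tests more genes and called 2.95% and 2.91% of them. The unpaired test of the methods gave 4 and 3, and 1 on the gradient, beside 2.15%, 3.93% and 0.189% of all genes. With only the arrays of the lines compared, T47D-PA6 against T47D-PA5 gave 4 and the gradient 1, in fits with fewer arrays, beside 8.38% and 0.896% of all genes. Where no construction is named, the cause was not tested.

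Leaving out 1 array at a time gave 3 to 10 for T47D-PA6 against T47D-VC1, 0 to 1 for T47D-PA5 against T47D-VC1, 2 to 8 for T47D-PA6 against T47D-PA5 and 1 to 3 on the gradient. Over all genes these fits called, in that order, 3.47% to 13.7%, 0.493% to 3.08% and 3.61% to 14.6%, and put 0.463% to 1.97% on the gradient.

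In the same order, with the replicate number as a block the counts were 12, 2 and 7, and 3 on the gradient, beside 13%, 2.43%, 12% and 1.65% of all genes. Arrays with the same number correlated at 0.0996 to 0.338 in their deviations from the line means over 9 pairs, arrays with different numbers at -0.316 to 0.261 over 18, and 4 of the 9 arrays correlated best with their own number. The labels do not say what a number marks, so the numbers were not taken to pair the arrays.

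A pair of alternatives was chosen after seeing the data. Scan run as a block gave 14, 3 and 12, and 3 on the gradient, where it called 19.6%, 5.16% and 17.8% of all genes and put 2.31% on the gradient. The 6 arrays of the later scan run alone gave 20, 11 and 21, and 6 on the gradient, TRIM4, TRIM6, TRIM21, TRIM41, TRIM56 and TRIM69. That fit called 37.1%, 21.4% and 35.5% of all genes and put 5.26% on the gradient, and the cause was not tested. No scaling moved the median of all genes by more than 0.1. Signal near background limits what can be said of genes such as TRIM22, TRIM38 and TRIM55, and a member above background on no array cannot be read as absent from the cells.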

Other observations

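Some proteins of the family have no TRIM symbol. PML, the organizer of PML nuclear bodies, MEFV, the inflammasome protein pyrin, and MID1 and MID2 of microtubules were all tested. PML gave 2590, 2320 and 2190 in T47D-VC1, 3090, 3940 and 3590 in T47D-PA5 and 6000, 4980 and 4960 in T47D-PA6, and the 3 lines did not overlap. It rose by 1.17 ± 0.13 over T47D-VC1 (limma adjusted p = 0.00189) and by 0.59 ± 0.13 over T47D-PA5 (limma adjusted p = 0.0284), and so it was on the gradient. The rise over T47D-PA5 did not pass the unpaired test after adjustment, so by that test PML was not on the gradient. MEFV was at 0.56 ± 0.16 over T47D-VC1 (limma adjusted p = 0.0581), MID1 at -0.06 ± 0.40 and MID2 at 0.21 ± 0.17, and none of these passed.

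Transcripts named after a TRIM gene with a hyphen were read by 4 probes. A probe for TRIM52-AS1, the antisense transcript of TRIM52, gave 1430, 1410 and 1230 in T47D-VC1, 1710, 1710 and 1820 in T47D-PA5 and 2330, 1790 and 2000 in T47D-PA6. It rose by 0.58 in T47D-PA6 over T47D-VC1 in a fit over probes (limma adjusted p = 0.0215), while a second probe of this transcript was at -0.09 (0.628). TRIM52 itself was at -0.39 ± 0.17 and did not pass (limma adjusted p = 0.192). The readthrough TRIM39-RPP21 was at 0.13 and TRIM31-AS1 at 0.34, and neither passed.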
